A study of Homo sapiens with 4 samples.

Results

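Cells kept in the methylation inhibitor DZNep were compared 48 h after 4 Gy of gamma radiation with unirradiated cells kept in the same drug. The cells were NCI-H460, an established line of human non-small cell lung cancer, and both groups were given 2 uM of 3-deazaneplanocin A (DZNep) for 48 h after the radiation step. Each group was 1 library, called DZNep 0 Gy and DZNep 4 Gy here. The remaining pair of the study, DMSO 0 Gy and DMSO 4 Gy, had the drug's solvent alone and serves as the reference for the same dose without the drug. The genes described were all symbols at 10 CPM or more in the higher of the DZNep libraries, where CPM is the count scaled to library size. These were 7996 of 26364 symbols, or 30.3%. They held 97.8% of the counts of either library. The study asked which genes differ with the drug and with radiation.

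Ionizing radiation breaks DNA, and the broken ends activate the kinase ATM, which stabilizes the transcription factor p53. p53 then raises genes that halt the cell cycle, repair DNA, limit its own activity or kill the cell. Cell cycle genes fall later, since p21, the product of CDKN1A, keeps the RB family in the form that holds E2F and DREAM target promoters silent. DZNep blocks S-adenosylhomocysteine hydrolase, and the product that builds up inhibits methyltransferases, among them the Polycomb enzyme EZH2. NCI-H460 is known to lack CDKN2A.

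The 4 libraries held 112461380 to 136594350 counts, and the counts were scaled by edgeR's TMM method. Ratios are log2 of 4 Gy over 0 Gy after that scaling, with a prior count of 2, so 1 on this scale is a 2-fold difference. Nothing in the labels says how many cultures a library came from. With 1 library per group no difference has a replicate check, nothing was tested, and a called gene is one past a stated fold. Intervals in square brackets are exact 95% binomial intervals of a ratio and cover counting error only. They may be too narrow, since even numbers made up 55.9% to 58.1% of counts from 1 to 59. The keratin genes KRT8, KRT18 and KRT19 were at 146 to 2074 CPM in the DZNep libraries. EPCAM, CDH1 and NKX2-1 stayed under 0.5 CPM in all 4 libraries, so these epithelial and lung markers were nearly absent. In RNA from a culture, fewer cells of a kind and less RNA per cell cannot be told apart. The limit that no count allows is 3 counts, or 0.0232 CPM in DZNep 0 Gy and 0.0264 CPM in DZNep 4 Gy.

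Radiation in DZNep came with more genes past 2-fold upward than downward. At 2-fold, 72 genes were higher at 4 Gy (0.9% of the 7996) and 16 were lower (0.2%). Scaled by plain library size instead, the split was 66 higher and 27 lower. At 1.5-fold, 356 were higher (4.45%) and 320 lower (4.0%), so the excess lay in the large ratios. The median ratio of all genes was 0.03, with an SD of 0.39, and the middle 90% of genes lay between -0.55 and 0.56. Just inside the level limit were AFG3L2 and UTP18, both at 10.003 CPM, and just outside were ANO7 and DCLRE1B, both at 9.995 CPM. The limit uses the higher library, so a gene can enter through the library where it is high. Of the 72 higher genes, 56 also had a mean of 10 CPM or more over both DZNep libraries, and of the 16 lower genes 9 did.

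**Figure D1:**
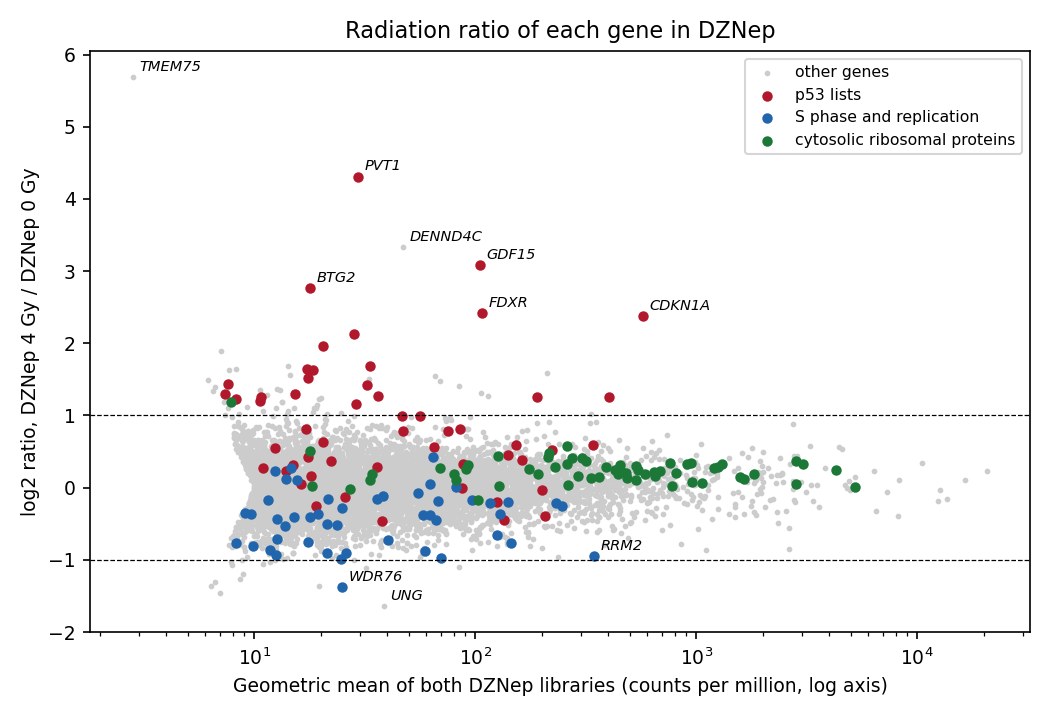
Log2 ratio of DZNep 4 Gy over DZNep 0 Gy (vertical axis) against the geometric mean level of both DZNep libraries in CPM (horizontal log axis), 1 point per gene, short RNA symbols left out. Dashed lines mark 2-fold; p53 target lists (red) reach from below 0 to PVT1 at 4.31, while S phase genes (blue) lie between -1.38 and 0.43.

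Across the same genes the DMSO pair was wider, with an SD of 0.44, 143 genes at least 2-fold higher (1.79%) and 82 lower (1.03%). The 2 pairs share no library. Their ratios had a Pearson correlation of 0.52 and a Spearman correlation of 0.51 over 7996 genes, which are not independent replicates. Of the 72 genes higher in DZNep, 68 were above 0 in DMSO and 40 were past 2-fold there. Those 40 were 55.6% of the DZNep set and 28% of the DMSO set. The lower genes overlapped less: 2 were past 2-fold in both, 12.5% of the DZNep set and 2.44% of the DMSO set. The 82 genes that DMSO had 2-fold lower were below 0 in DZNep in 71 cases, at a median of -0.38 against -1.10 in DMSO. The 143 that DMSO had 2-fold higher were above 0 in DZNep in 135 cases, at a median of 0.64 against 1.20. Genes picked for a large ratio in a given pair tend to lie nearer to 0 in the other. Picked by DZNep instead, the higher genes had a median of 1.33 in DZNep and 1.06 in DMSO. The lower genes picked in this way had -1.225 and -0.44. These medians therefore do not show which pair responded more.

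Targets of p53 stood out among the higher genes. Of 79 listed p53 targets and regulators, 53 reached the level limit. Of these, 22 were at least 2-fold higher and 0 were 2-fold lower, beside 0.9% and 0.2% of all 7996 genes. Those 22 were 30.6% of the 72 higher genes. Among them BTG2, CEACAM1, IER5, PHLDA3, PIDD1, PLXNB3, PVT1, SESN2 and SULF2 were under 10 CPM in DZNep 0 Gy. They passed the limit only through DZNep 4 Gy, which tilts the counts upward. At 1.5-fold the counts were 31 and 0, beside 4.45% and 4.0% of all genes. The median over the 53 was 0.78 in DZNep and 0.80 in DMSO, beside 0.03 and -0.04 over all 7996 genes. The other 26 of the 79 stayed under 10 CPM in both DZNep libraries.

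**Figure D2:**
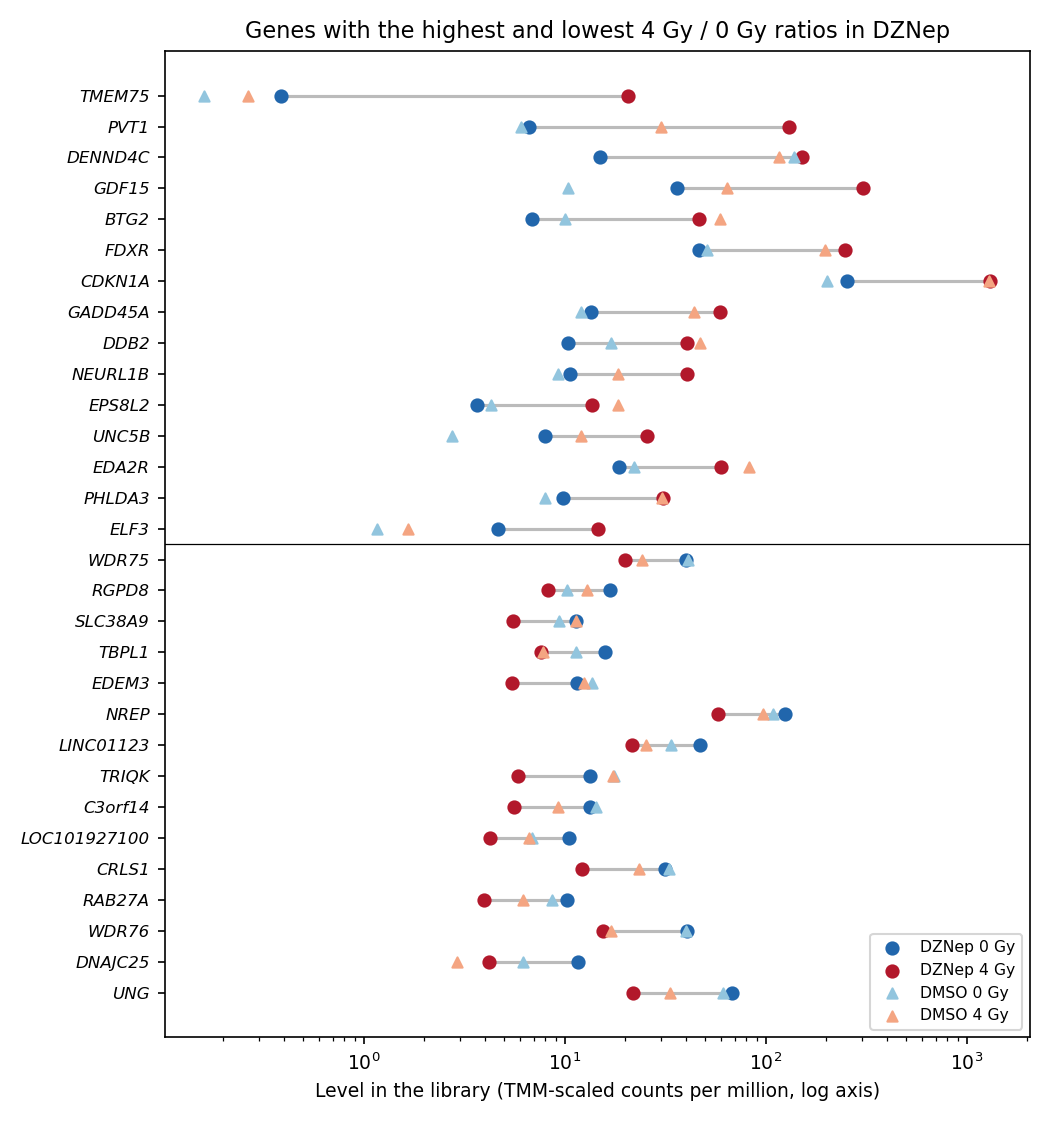
Level in each of the 4 libraries (TMM-scaled CPM, log axis) of the 15 genes with the highest and the 15 with the lowest ratio in DZNep, above and below the line; circles are DZNep, triangles DMSO, and grey lines join the DZNep libraries. GDF15, BTG2 and CDKN1A move alike in both pairs, while DENND4C is low only in DZNep 0 Gy, at 14.9 CPM.

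Of p53 targets that stop the cell cycle, 5 of 10 were at least 2-fold higher and 0 lower, beside 0.9% and 0.2% of all genes. Their median was 1.05 in DZNep against 1.22 in DMSO. CDKN1A, which encodes the cyclin-dependent kinase inhibitor p21, was at 252 CPM in DZNep 0 Gy and 1310.1 CPM in DZNep 4 Gy, a ratio of 2.38 [2.36 to 2.40]. It stood at 202 and 1287 CPM in DMSO, so both irradiated libraries reached nearly the same level. BTG2, an antiproliferative p53 target, was at 6.88 and 46.7 CPM in DZNep and at 9.96 and 59.3 CPM in DMSO. Its ratio of 2.76 [2.66 to 2.87] was the highest of this list in DZNep. GADD45A, a stress sensor of the cell cycle, went from 13.5 to 59.1 CPM, a ratio of 2.13, and PRDM1, a transcriptional repressor, from 10.5 to 32.6 CPM, a ratio of 1.63. The stress kinase PLK3 was at 10.3 and 29.6 CPM. The remaining members lay lower: PML at 0.59, PLK2 at 0.46, BTG1 at 0.32, SFN at 0.29 and E2F7 at 0.23. BTG1 had 1.14 in DMSO, and its DZNep libraries were both at 78.5 CPM or more against 14.2 and 31.3 CPM in DMSO.

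Death genes of the p53 pathway had a median of 0.99 in DZNep and 0.68 in DMSO. In DZNep 5 of 11 were at least 2-fold higher and 0 lower, beside 0.9% and 0.2% of all genes. At 1.5-fold, 6 were higher in DZNep and 8 in DMSO, beside 4.45% and 7.88% of all genes. The ratio was higher in DZNep than in DMSO in 5 of the 11. PHLDA3, an inhibitor of AKT, was at 9.79 and 30.8 CPM in DZNep, a ratio of 1.65. FAS, a death receptor, was at 19.7 and 52.8 CPM, a ratio of 1.42 against 1.49 in DMSO. BAX, which permeabilizes mitochondria, was at 123 and 293 CPM in DZNep and at 188 and 283 CPM in DMSO, ratios of 1.26 and 0.59. The irradiated levels of BAX were thus close, and the unirradiated level was lower with the drug. PIDD1, a death domain protein that activates caspase-2, had 1.30, and the nuclease AEN had 1.16. TRAF4 had 0.99, TP53I3 0.42 and TNFRSF10B, a TRAIL receptor, 0.39. The remaining 3 lay below 0: PERP at -0.20, EI24 at -0.03 and STEAP3 at -0.00. PIDD1 overlaps RPLP2, and FAS overlaps ACTA2, on the opposite strand. Use of strand in the counting is not given in the sources used here, and 42 of the 2-fold genes overlap another symbol in this way or on their own strand.

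Repair and metabolic targets of p53 included 4 of 9 at least 2-fold higher, beside 0.9% of all genes, and all 9 had a ratio above 0 in DZNep. FDXR, a mitochondrial reductase that feeds electrons to steroid and iron-sulfur synthesis, was at 46.4 and 248 CPM in DZNep and at 51 and 196 CPM in DMSO. Its ratio in DZNep was 2.42 [2.38 to 2.46]. DDB2 and XPC recognize damaged bases in nucleotide excision repair. DDB2 was at 10.4 and 40.6 CPM, a ratio of 1.97 [1.88 to 2.06]. XPC was at 23.4 and 56.4 CPM, a ratio of 1.27, and SESN2, a stress-induced inhibitor of mTORC1, had 1.25. POLH, a polymerase that copies past lesions, had 0.82 and GPX1 had 0.53. The other 3 members were at 0.32 or below, and RRM2B, the p53-induced ribonucleotide reductase subunit, had 0.28 in DZNep against 1.21 in DMSO.

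Of 8 genes in the list of feedback regulators, 1 was 2-fold higher, beside 0.9% of all genes. That gene was MDM2, the ubiquitin ligase that degrades p53, at 262 and 622 CPM in DZNep and 199 and 765 CPM in DMSO. Its ratios were 1.25 and 1.94. CCNG1 had 0.64 and ZMAT3 0.55. Below 0 were RCHY1 at -0.47, USP7 at -0.44, MDM4 at -0.40 and RFWD2 at -0.13. The median of the list was 0.21, and with a limit of 20 CPM it was -0.13.

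Secreted and other targets had a median of 0.99 in DZNep and 0.94 in DMSO. In DZNep 7 of 15 were at least 2-fold higher, beside 0.9% of all genes. The ratio was higher in DZNep than in DMSO in 3 of the 15, and after GC centring the medians were 0.80 and 0.93. GDF15, a stress cytokine of the TGF-beta superfamily, was at 36.1 and 305 CPM in DZNep and at 10.4 and 64.2 CPM in DMSO. Its ratio was 3.08 [3.03 to 3.12] in DZNep and 2.63 in DMSO, and its DZNep libraries lay above the DMSO libraries of the same dose. EDA2R, a receptor of the TNF receptor family, was at 18.6 and 59.9 CPM, a ratio of 1.69. SULF2, a heparan sulfate sulfatase, had 1.30 in DZNep and 2.91 in DMSO. CEACAM1, an adhesion molecule, was at 4.59 and 12.5 CPM in DZNep, against 0.239 and 5.12 CPM in DMSO. KITLG was the member below 0, at -0.26. Among targets under the level limit, the death gene BBC3 was at 1.52 and 8.85 CPM, TP53INP1 at 2.44 and 9.22 CPM, and NLRP1 at 2.15 and 8.66 CPM. PMAIP1 was at 5.91 and 5.47 CPM. These low genes were picked after their values were seen.

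The p53 response element is a pair of adjoining motifs of 10 bases each. Promoter windows of 300 bases, from 250 before to 50 after the RefSeq start (GRCh38.p14), were searched for it with a gap of up to 13 bases and up to 2 mismatches. The build is not the hg19 of the counts, and genes were matched by symbol. A match was found in 2.94% of 27305 promoters and in 2.46% of those of genes at the level limit, short RNAs left out. It was in 3 of 56 promoters of the 2-fold higher genes, which is 5.36%. The difference was not tested. The windows of AEN and FDXR are shown because both genes were 2-fold higher and the match lies next to the start. Capitals mark the match with its gap, at chr15:88621266-88621339 on the plus strand for AEN and chr17:74872995-74873065 on the minus strand for FDXR.
AEN: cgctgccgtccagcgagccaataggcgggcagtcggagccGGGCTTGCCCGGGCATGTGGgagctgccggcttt
FDXR: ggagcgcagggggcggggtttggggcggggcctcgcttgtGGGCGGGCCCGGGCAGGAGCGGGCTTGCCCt
Such a match is a description of letters, and many known p53 sites lie outside windows of this kind.

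PVT1, a long noncoding RNA next to MYC and a known p53 target, had the highest ratio of the p53 lists. It was at 6.62 and 131 CPM in DZNep and at 6.06 and 30.1 CPM in DMSO. The ratios were 4.31 [4.21 to 4.41] and 2.31, so the unirradiated libraries were alike and DZNep 4 Gy stood above the other 3 libraries. TMEM75, which lies inside PVT1 on the opposite strand, had 50 counts in DZNep 0 Gy and 2353 in DZNep 4 Gy, a ratio of 5.69 [5.34 to 6.18]. It had 22 and 30 counts in DMSO. The miRNA symbols MIR1205, MIR1206 and MIR1207, also inside PVT1, had 2349, 2377 and 2376 counts in DZNep 4 Gy and 27, 47 and 27 in DZNep 0 Gy. In DMSO they had 11 to 30 counts. These 4 nearly equal counts cannot be told apart from reads of PVT1, and the miRNAs were named after their values were seen. MIR1204, inside PVT1 as well, had 2151 and 3308 counts, a ratio of 0.81. MYC itself was lower at 4 Gy in both pairs, at 499.9 and 347 CPM in DZNep and 303 and 223 CPM in DMSO.

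DENND4C, which encodes an exchange factor for RAB10, had a ratio of 3.33 [3.26 to 3.40] in DZNep and -0.24 in DMSO. Its levels were 14.9 CPM in DZNep 0 Gy, 150.5 CPM in DZNep 4 Gy, and 138 and 116 CPM in DMSO. The 3 other libraries thus lay close together, and the ratio rests on a low value in DZNep 0 Gy. Its difference between the pairs, 3.57, was the largest among 7501 genes at 10 CPM or more in both pairs.

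Among the 15 highest ratios outside the p53 lists, NEURL1B, a ubiquitin ligase of Notch ligands, was at 10.6 and 40.5 CPM, a ratio of 1.93 against 0.99 in DMSO. EPS8L2, an actin regulator, had 1.90 and 2.08, and UNC5B, a netrin receptor, had 1.69 and 2.12. The epithelial transcription factor ELF3 was at 4.66 and 14.6 CPM in DZNep against 1.16 and 1.66 CPM in DMSO. TXNIP, a thioredoxin inhibitor known to be raised by DZNep in other cells, was at 19.6 and 55.7 CPM in DZNep and at 15.6 and 47.9 CPM in DMSO. Its ratios were 1.51 and 1.62. Further genes were picked after their values were seen, for their high level. NRG1, a ligand of ERBB receptors, was at 235 and 476 CPM, and CYFIP2, an actin regulator, at 122 and 365 CPM. GSN, the actin-severing protein gelsolin, was at 73.7 and 177 CPM, and the T cell costimulator CD70 at 38.5 and 113 CPM. All 4 were also above 0 in DMSO, from 0.98 for CD70 to 1.92 for CYFIP2.

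UNG, the uracil glycosylase that starts repair of uracil in DNA, had the lowest ratio of the genes other than short RNAs. It was at 67.9 and 21.8 CPM in DZNep and at 61.5 and 33.5 CPM in DMSO. The ratios were -1.64 [-1.70 to -1.58] and -0.88. WDR76, a DNA-binding WD repeat protein, was at 40.4 and 15.5 CPM in DZNep and 39.9 and 16.9 CPM in DMSO, so both pairs moved alike. CRLS1, which makes the mitochondrial lipid cardiolipin, was at 31.5 and 12.2 CPM, a ratio of -1.37 against -0.51 in DMSO. NREP was at 124 and 57.8 CPM, and the noncoding RNA LINC01123 at 47 and 21.7 CPM. RAB27A, a GTPase of vesicle docking, was at 10.2 and 3.96 CPM and overlaps PIGB and PIGBOS1. DNAJC25 had -1.46 and shares sequence with its readthrough symbol DNAJC25-GNG10, which had -0.62. The other 8 of these 15 lay between -1.31 (LOC101927100) and -1.0 (WDR75). They included RGPD8, one of a family of near-identical copies, and SLC38A9, an arginine sensor of the lysosome. The 16th gene, SNORA31, is a short RNA inside TPT1, which had 0.04.

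Ratios in DZNep moved with the GC content of the transcript, which bears on most of the lower genes. Across 7913 genes with a GC value, the Spearman correlation of ratio and GC was 0.49 in DZNep and 0.15 in DMSO. With the genes in 10 equal bins of GC, the bin with the least (up to 38.9%) had a median ratio of -0.26 in DZNep and -0.13 in DMSO. In the bin with the most (61.2% to 80.6%) it was 0.20 and 0.03. Of the 16 lower symbols, 7, 3 and 3 came from the 3 bins with the least GC. The 2 bins with the most GC held 17 and 14 of the 72 higher symbols and 0 of the lower ones. After centring each ratio on genes of like GC, 64 genes were 2-fold higher and 10 lower. UNG then had -1.69 and WDR76 -1.17, while C3orf14, EDEM3, NREP, RGPD8, SLC38A9, TBPL1, TRIQK and WDR75 came to lie between -0.99 and -0.75. The part of GC content in these ratios was not tested.

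**Figure D3:**
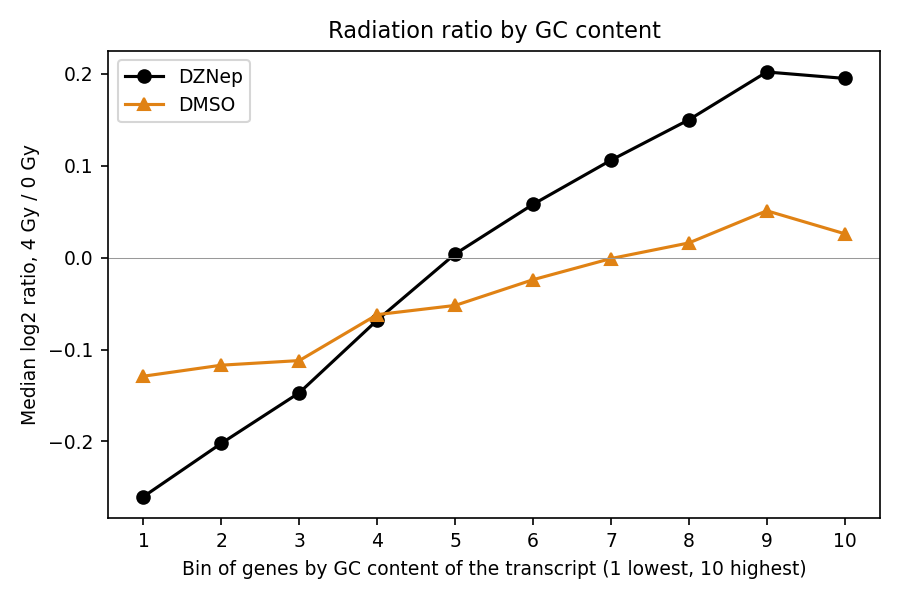
Median log2 ratio of 4 Gy over 0 Gy (vertical axis) in 10 bins of 7913 genes ordered by GC content of the transcript (horizontal axis), for DZNep (circles) and DMSO (triangles). The DZNep medians climb from -0.26 to 0.20, and the DMSO medians span -0.13 to 0.05.

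Genes of DNA replication were lower at 4 Gy in DZNep, by less than in DMSO. Of 48 S phase genes at the level limit, 1 was at least 2-fold lower and 0 higher. At 1.5-fold, 16 were lower and 0 higher, beside 4.0% and 4.45% of all genes in DZNep, and 41 had a ratio below 0. The median was -0.38 in DZNep and -0.81 in DMSO, beside 0.03 and -0.04 over all genes. In DMSO 36 were 1.5-fold lower (7.5% of all genes were). A higher ratio in DZNep than in DMSO was seen in 42 of the 48, and how many of all genes had this was not counted. The same 16 stayed past 1.5-fold after GC centring. The summed level was 3239.7 and 2402 CPM in DZNep and 4125 and 2364 CPM in DMSO, so the irradiated sums were close and the unirradiated sum was lower with the drug.

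The subunits of the replicative helicase were not alike. MCM6 was at 34.9 and 17.6 CPM in DZNep and 46.3 and 21.7 CPM in DMSO, ratios of -0.99 and -1.10. MCM4 was at 98.2 and 50.1 CPM, a ratio of -0.97, and MCM5 at 35.8 and 19.1 CPM, a ratio of -0.91. MCM2 had -0.72, MCM3 -0.37 and MCM7 -0.25. In DMSO the same 3 subunits had -0.72, -1.06 and -0.88. The loading factor CDC6 had -0.50 and the GINS subunit GINS2 -0.87. Enzymes of nucleotide supply also differed: RRM2, the inducible subunit of ribonucleotide reductase, was at 478 and 248 CPM in DZNep and 757 and 271 CPM in DMSO. DUT, which removes dUTP, was at 189 and 112 CPM, while TYMS was at 81.4 and 81.7 CPM. E2F1, the activator of this gene class, had -0.94 in DZNep and -0.71 in DMSO. Members above 0 in DZNep were LIG1 at 0.43, TIMELESS at 0.27, GINS4 at 0.24, ASF1B at 0.12, POLA2 at 0.11, POLD1 at 0.06 and TYMS at 0.01. TIMELESS was at 13.4 and 16.2 CPM in DZNep and at 31.2 and 18.5 CPM in DMSO.

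Replication genes often carry an E2F element, searched here as TTTCCCGC or TTTGGCGC on either strand. It was found in 2.31% of the 27305 promoters and in 4.08% of those of genes at the level limit, short RNAs left out. Of S phase promoters 20 of 41 had it (48.8%), and of mitosis promoters 2 of 37 (5.41%). S phase genes with the element had a median ratio of -0.37 and those without it -0.35. Windows of 4 S phase genes are shown, picked for low ratios among genes with a match before the start. They let the element be seen: MCM6 and E2F1 above, GINS2 and CDCA7, which had -0.45. Capitals mark it, and positions are chr2:135876486-135876573 (minus strand) for MCM6, chr20:33686386-33686445 (minus) for E2F1, chr16:85688955-85689025 (minus) for GINS2 and chr2:173354767-173354854 (plus) for CDCA7.
MCM6: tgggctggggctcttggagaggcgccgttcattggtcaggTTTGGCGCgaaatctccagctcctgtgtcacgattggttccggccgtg
E2F1: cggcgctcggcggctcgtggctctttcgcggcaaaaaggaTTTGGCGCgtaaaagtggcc
GINS2: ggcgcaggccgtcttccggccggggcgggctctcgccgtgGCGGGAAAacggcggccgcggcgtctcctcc
CDCA7: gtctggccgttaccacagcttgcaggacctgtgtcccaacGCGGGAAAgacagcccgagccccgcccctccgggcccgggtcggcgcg
In GINS2 and CDCA7 the element reads on the opposite strand.

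Mitotic genes stayed near 0 in DZNep and were lower at 4 Gy in DMSO. Of 44 at the level limit, 0 were 2-fold higher or lower in DZNep. At 1.5-fold 5 were lower and 0 were higher there, beside 4.0% and 4.45% of all genes. In DMSO 10 were 2-fold lower and 30 were 1.5-fold lower, where over all genes 7.88% were 1.5-fold higher and 7.5% lower. The median was -0.00 in DZNep and -0.79 in DMSO, beside 0.03 and -0.04 over all genes, and 22 members lay above 0 and 22 below. In 43 of 44 the DZNep ratio was above the DMSO ratio, the exception being ECT2. This difference between pairs of single libraries was not tested, and how many of all genes had the higher ratio in DZNep was not counted. The summed level without CDC25B, which took 2683 CPM of 8305 in DZNep 0 Gy, was 5622 and 6304 CPM in DZNep and 6739 and 4287 CPM in DMSO. UBE2C, which encodes a ubiquitin-conjugating enzyme of the anaphase-promoting complex, was at 2062 and 2753 CPM in DZNep. Without it as well, the sums were 3560.5 and 3551 CPM in DZNep and 4763 and 2877 CPM in DMSO. Here, unlike in S phase, the irradiated libraries differed as well.

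CENPF, a kinetochore protein, was at 38.5 and 48.9 CPM in DZNep and 47.3 and 22.3 CPM in DMSO. Its difference between the pairs, 1.43, was the largest of the list. PLK1, the kinase that drives mitotic entry, was at 130.1 and 151 CPM in DZNep and 127 and 78.9 CPM in DMSO. AURKA was at 272 and 374 CPM in DZNep and 455 and 368 CPM in DMSO, and AURKB, its paralog, at 178 and 138 CPM in DZNep and 237 and 96.7 CPM in DMSO. TPX2, the activator of AURKA, had 0.49 in DZNep and -0.51 in DMSO. CCNB1 was at 72.8 and 71.7 CPM in DZNep, whereas CCNB2 was at 48.9 and 64.5 CPM. CDC25B, the phosphatase that activates cyclin-dependent kinases, had the highest ratio, 0.57, and was above 0 in DMSO too, at 0.19. The 5 genes at least 1.5-fold lower were ANLN at -0.72, ECT2 at -0.70, CCNA2 at -0.69, CDK1 at -0.69 and KIF11 at -0.61. After GC centring 0 of the 5 were past 1.5-fold. Outside the list, CKS1B, a subunit of cyclin-dependent kinases, was among the 10 genes with the largest difference, at 0.53 in DZNep and -0.94 in DMSO.

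**Figure D4:**
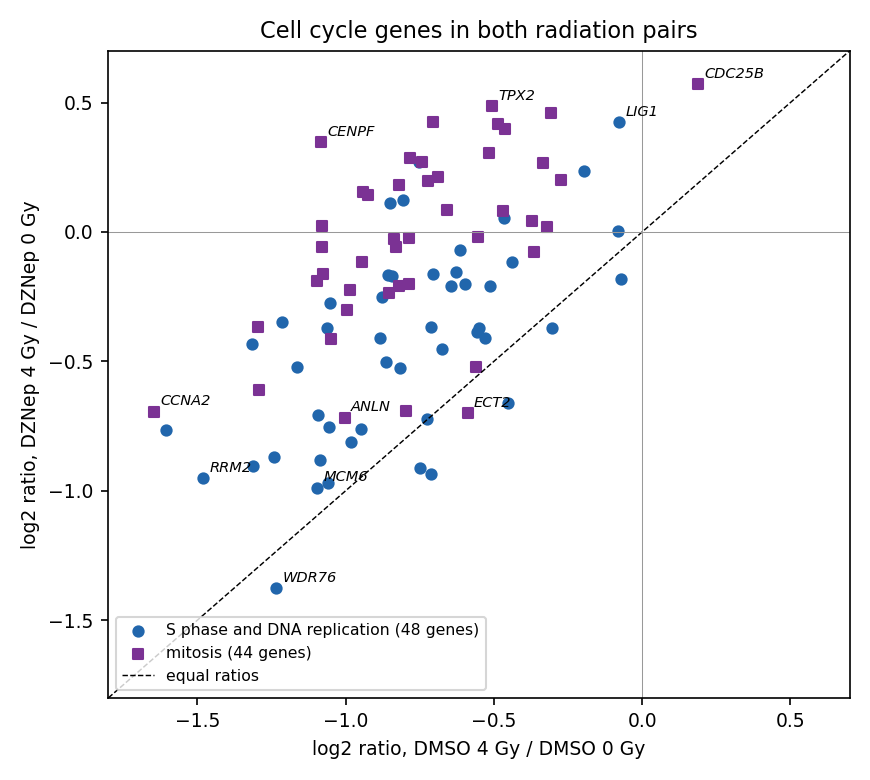
Log2 ratio in DZNep (vertical axis) against that in DMSO (horizontal axis) for 48 S phase genes (circles) and 44 mitotic genes (squares); the dashed line marks equal ratios. All mitotic genes but ECT2 lie above the line, with CENPF at 0.35 and -1.08, and WDR76 lies lowest at -1.38.

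Mitotic promoters often hold a cell cycle homology region, TTTGAA, searched on both strands; its letters match neither E2F string. It was in 15.4% of all promoters and in 9.08% of those of genes at the level limit, short RNAs left out. Of mitosis promoters 25 of 37 had it (67.6%), and of S phase promoters 2 of 41 (4.88%). Mitotic genes with it had a median ratio of -0.03 in DZNep and those without it -0.04. Windows of 4 genes with high counts are shown so that the letters can be seen: ECT2 and ANLN are among the 5 lower genes, PRC1 had 0.09 and PLK1 0.21. Capitals mark the letters, at chr3:172750571-172750656 (plus) for ECT2, chr7:36389802-36389861 (plus) for ANLN, chr15:90994536-90994595 (minus) for PRC1 and chr16:23678820-23678888 (plus) for PLK1.
ECT2: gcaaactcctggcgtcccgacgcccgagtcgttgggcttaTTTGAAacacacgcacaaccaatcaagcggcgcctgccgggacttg
ANLN: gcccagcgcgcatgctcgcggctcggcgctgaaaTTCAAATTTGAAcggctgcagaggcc
PRC1: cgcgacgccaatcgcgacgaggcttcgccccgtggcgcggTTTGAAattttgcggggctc
PLK1: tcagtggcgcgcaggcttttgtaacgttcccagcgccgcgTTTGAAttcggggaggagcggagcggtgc
ANLN holds the letters on both strands, side by side.

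Double strand break repair genes were mostly a little lower. Of 25 double strand break and checkpoint genes, 0 were 2-fold apart, 3 were 1.5-fold lower and 23 had a ratio below 0. Their median was -0.24 against -0.50 in DMSO. Over all genes in DZNep, 4.0% were 1.5-fold lower and 4.45% higher. EXO1, a resecting nuclease, was at 266 and 149.7 CPM, a ratio of -0.83, and WEE1, the kinase that holds CDK1 inactive, had -0.80. The third, DCLRE1C (Artemis), had -0.62. BARD1, the partner of BRCA1, had -0.03 in DZNep and -1.16 in DMSO. Of 16 base repair genes, 8 lay above 0 and 8 below, at a median of 0.02 that turned to -0.03 with plain library size. UNG was 2-fold lower, and MUTYH at 0.69 and XRCC1 at 0.64 were 1.5-fold higher. MUTYH removes adenine opposite oxidized guanine, and it was at 22.4 and 36.3 CPM in DZNep and 35.7 and 25.9 CPM in DMSO. After GC centring neither MUTYH nor XRCC1 was past 1.5-fold.

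Inflammatory genes had a median of 0.33, with 6 of 25 at least 1.5-fold higher and 0 lower. In DMSO the median was 0.18, with 7 higher and 1 lower. Over all genes 4.45% were 1.5-fold higher and 4.0% lower in DZNep, and 7.88% and 7.5% in DMSO. RELB, among the 6, was at 6.19 CPM in DZNep 0 Gy and passed the limit only through DZNep 4 Gy. ICAM1, an adhesion receptor, was at 19.3 and 36.5 CPM in DZNep and 5.55 and 10.5 CPM in DMSO. IL6 was at 177 and 301 CPM, NFKB2 at 241 and 451 CPM, and TNFAIP3, a feedback inhibitor of NF-kB, at 577 and 953 CPM. MMP1 was at 80 and 71.3 CPM in DZNep against 9.27 and 14.8 CPM in DMSO. In the stress response list 4 of 28 genes were 2-fold higher, beside 0.9% of all genes: NUPR1 at 1.37, PPP1R15A at 1.35, ATF3 at 1.32 and DDIT3 at 1.18. NUPR1, PPP1R15A and DDIT3 were under 10 CPM in DZNep 0 Gy and passed the limit only through DZNep 4 Gy. CEBPB at -0.75 and SLC7A11 at -0.62 were 1.5-fold lower. NUPR1, a stress-induced chromatin protein, was at 7.84 and 20.3 CPM in DZNep and 0.508 and 4.17 CPM in DMSO, where its ratio was 3.00. ATF3, a stress-induced transcription factor that p53 also controls, was at 66.9 and 167 CPM in DZNep and 23.2 and 36.7 CPM in DMSO. ATF4, the factor upstream of these genes, had -0.43, and the list median was 0.13.

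Ribosomal protein genes were slightly higher with radiation in DZNep and not in DMSO. The median over 60 was 0.24 in DZNep and -0.08 in DMSO, beside 0.03 and -0.04 over all genes. Of the 60, 57 had the higher ratio in DZNep. How many of all genes had the higher ratio in DZNep was not counted. Their summed level was 42151 and 48547 CPM in DZNep and 59392 and 60197 CPM in DMSO. RPS27L, a paralog that p53 induces, had 1.18; without it the list ran from -0.17 (RPS3A) to 0.58 (RPS19), and 57 of 59 lay above 0. These genes have many processed copies in the genome, so their counts are uncertain. The snoRNA host genes include many whose transcripts begin with a pyrimidine tract, as those of ribosomal proteins do. Of 10 hosts, 3 were at least 1.5-fold higher, beside 4.45% of all genes. SNHG1 had 1.02, SNHG15 0.84 and GAS5 0.76, against 0.28, 0.25 and 0.08 in DMSO. All 10 hosts had the higher ratio in DZNep, and SNHG1 contains several snoRNA symbols.

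**Figure D5:**
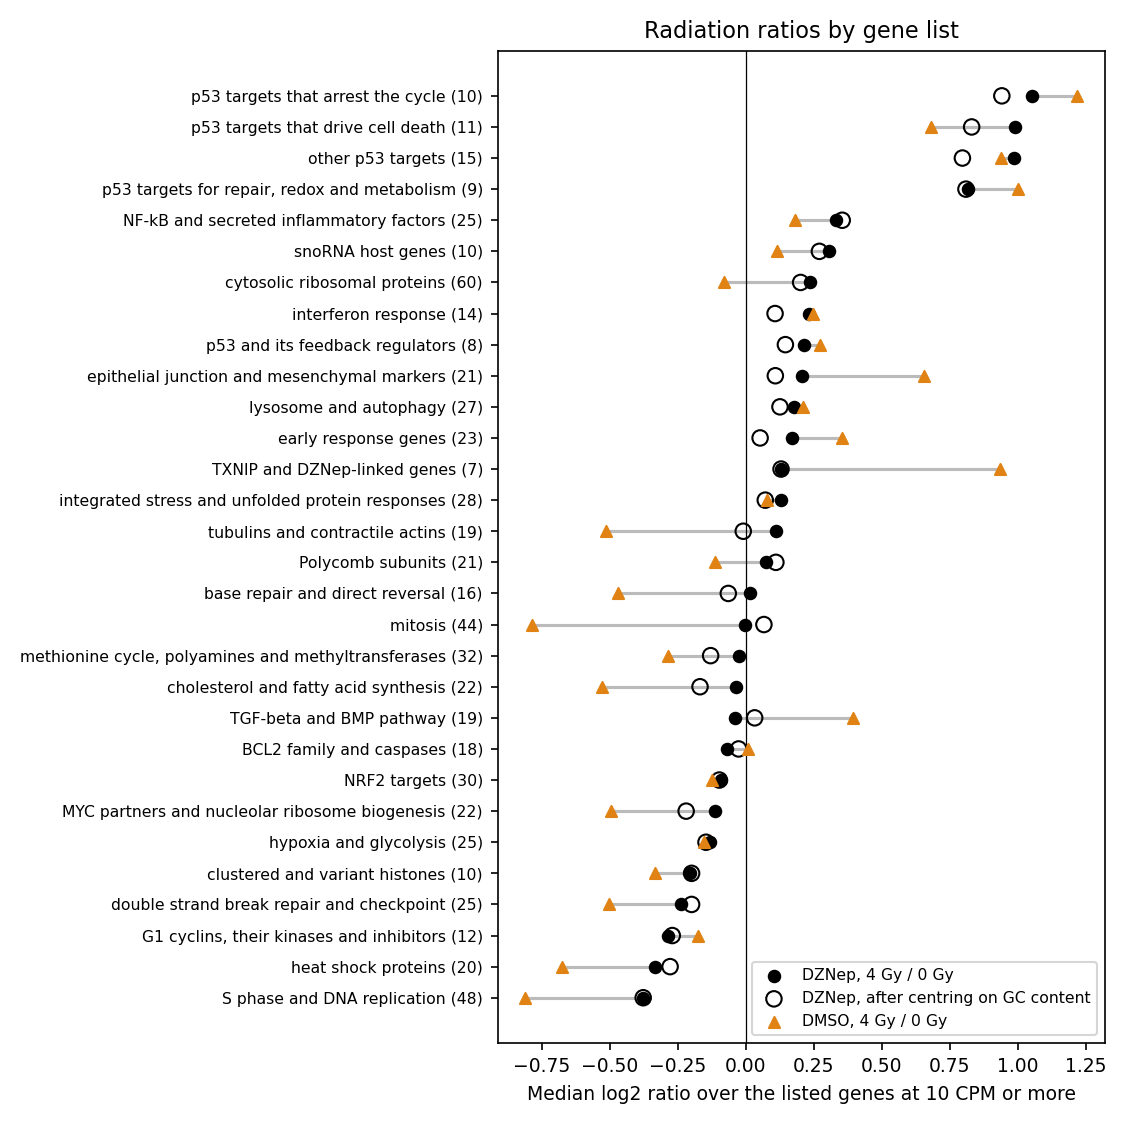
Median log2 ratio of 4 Gy over 0 Gy for 30 gene lists (number of genes in brackets), in DZNep (filled circles), in DZNep after centring on GC content (open circles) and in DMSO (triangles). The 4 lists of p53 targets lie highest in DZNep, at 0.82 to 1.05; mitosis is at -0.00 in DZNep and -0.79 in DMSO.

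Several other lists lay nearer to 0 in DZNep than in DMSO. Tubulins and contractile actins had medians of 0.11 and -0.51, and the first became -0.01 after GC centring. ACTB was at 14391 and 12962 CPM in DZNep and 10353 and 5879.6 CPM in DMSO. Cholesterol and fatty acid genes had medians of -0.04 and -0.53. INSIG1, the sterol sensor partner, was at 24.9 and 17.2 CPM in DZNep and at 77.6 and 26.3 CPM in DMSO. Heat shock genes had medians of -0.33 and -0.67, and HSPA8, the constitutive chaperone, had -0.78 and -0.72. Some lists that were higher with radiation in DMSO also lay nearer to 0 with the drug. Others did not, among them those for p53 death genes, other p53 targets, inflammatory genes, stress responses and snoRNA hosts. Epithelial and mesenchymal genes had medians of 0.21 and 0.66, and genes of the TGF-beta and BMP pathway -0.04 and 0.39. CTGF, a target of YAP and TGF-beta, was at 366 and 262 CPM in DZNep and at 98.7 and 173 CPM in DMSO.

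In the drug's own pathway, AHCY, the enzyme that DZNep inhibits, was at 227 and 229 CPM in DZNep, a ratio of 0.01 that turned to -0.03 with plain library size. EZH2 was at 53.9 and 48.5 CPM in DZNep and at 76.7 and 48.6 CPM in DMSO, ratios of -0.15 and -0.66. Of 21 Polycomb genes 0 were 2-fold apart, near the shares over all genes, 0.9% higher and 0.2% lower. RBBP4 at -0.71, RNF2 at -0.59 and RING1 at 0.59 were past 1.5-fold, and after GC centring 0 of the list were. Over all genes in DZNep, 4.0% were 1.5-fold lower and 4.45% higher. Of 32 genes of methionine, polyamine and methyltransferase metabolism 0 were 2-fold apart, again near the 2-fold shares over all genes. The demethylase KDM6B had 0.64 and AMD1, which makes decarboxylated S-adenosylmethionine, -0.59. CITED2 was at 946 and 1036 CPM in DZNep and at 55.2 and 116 CPM in DMSO, so its ratio was 0.13 with the drug and 1.07 without it.

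At the other end of the comparison stood genes with a lower ratio in DZNep than in DMSO. STRA6, a retinol transporter, was at 11.1 and 12 CPM in DZNep and at 6.08 and 21.1 CPM in DMSO, the largest such difference among the 7501 genes at 10 CPM or more in both pairs, at -1.67. The kinase gene PDK4 was at 46.5 and 52.7 CPM in DZNep and 9.82 and 34.6 CPM in DMSO. The linker histone HIST1H1C was at 15.7 and 10.3 CPM in DZNep and 5.83 and 12.1 CPM in DMSO. NRAP was at 146 and 106 CPM in DZNep and 6.95 and 14.7 CPM in DMSO. For STRA6, PDK4, HIST1H1C and NRAP alike the unirradiated level was already higher with the drug than without it. Of 17 markers of fibroblasts, endothelium and blood, CD68, PDGFRB and COL1A1 reached the limit, with ratios of 0.17, 0.43 and 0.64 in DZNep. The summed level of the 17 was 98.6 CPM in DZNep 0 Gy and 112 CPM in DZNep 4 Gy. PTPRC, HBB and ALB had no count in either DZNep library, while CD14 was at 7.73 and 7.35 CPM, HBA1 at 6.95 and 6.97 CPM and COL3A1 at 5.64 and 3.97 CPM.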

How the data were processed

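The files deposited by the authors hold unnormalized read counts for each gene symbol, in a table for each library. TopHat, edgeR and the hg19 build are named in the submitters' processing notes. Their versions were, like the counter, its annotation and its strand setting, not given in the sources used here. Per the labels' protocols, RNA was extracted with Trizol and prepared with the Lexogen SENSE mRNA kit. Samples were grouped by their labelled dose and drug.

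TMM scaling over the 4 libraries was run in edgeR 4.0.16 under R 4.3.3, with factors of 0.976556 to 1.00953. Ratios and intervals used pandas 2.3.3, numpy 2.4.6 and scipy 1.17.1, and were tested on simulated data; figures used matplotlib 3.10.9. The 32 gene lists, the members and the lines of comparison were chosen with earlier results of these data known. Named genes were the 15 highest and 15 lowest ratios, CDKN1A, MDM2, GDF15, AHCY, EZH2 and TXNIP, up to 6 per list with the largest absolute ratio, and the 10 largest differences between the pairs in either direction; others are given as further list members or are marked as chosen after their values were seen. A few list members are not reported here. Symbols of short RNAs (87 of the 7996) were counted and kept out of these rankings, since libraries of messenger RNA cannot measure them apart from host genes. GC content and length of transcripts, and gene overlaps, came from GENCODE v29 on GRCh38, matched by symbol; promoter sequences came from RefSeq (GRCh38.p14), and hg19 coordinates were not used. Promoters were found for 56 of 68 higher, 41 of 48 S phase and 37 of 44 mitotic genes. Alternatives were plain and RLE scaling, other prior counts, other level limits, a 1.5-fold limit, leaving out short RNAs, and, chosen after seeing the data, centring on GC content or transcript length in 20 bins.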

Additional observations from a re-analysis of the deposited data

Results flagged for a closer look

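In 6 of the 2-fold genes the 2 radiation pairs went in opposite directions. How many of all genes did so was not counted. Each pair is 1 library against 1, and the difference was not tested. DENND4C had a ratio of 3.33 in DZNep and -0.24 in DMSO. MAD1L1, a spindle checkpoint gene, had 1.34 and -0.25. TNFAIP8 had 1.07 and -0.05, and FAM110A had 1.02 and -0.13. Downward in DZNep, SLC38A9 had -1.03 and 0.27, and RGPD8 had -1.02 and 0.35. MAD1L1, TNFAIP8 and FAM110A were under 10 CPM in DZNep 0 Gy and passed the limit only through DZNep 4 Gy. SLC38A9 and RGPD8 were under 10 CPM in DZNep 4 Gy and passed it only through DZNep 0 Gy.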

How the results depend on the processing

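The counts of 72 higher and 16 lower genes came to 71 and 18 with RLE scaling, 72 and 16 with a prior count of 0.5, and 71 and 16 with one of 10. Plain library size gave 66 and 27. A limit of 5 CPM gave 114 and 36, 20 CPM gave 48 and 6, a mean of 10 CPM gave 56 and 9, and no filter gave 1813 and 1519. The 1.5-fold limit gave 356 and 320. Without short RNAs the counts were 68 and 15, with GC centring 64 and 10, and with length centring 67 and 19. Fewer or more genes entered under the level limits by construction; for the other settings the cause was not tested. Of 220 named genes, 0 changed sign with RLE scaling, 1 with plain library size, 5 with GC centring and 1 with length centring, none of them past 2-fold. No paired analysis was possible because each group has 1 library. For the same reason no library could be left out, and the interval of a ratio says nothing of the spread between cultures.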

Other observations

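Genes of the G1 phase were slightly lower at 4 Gy in DZNep, with 11 of 12 below 0. Their median was -0.28 against -0.17 in DMSO, beside 0.03 and -0.04 over all genes. At 1.5-fold 2 were lower and 0 higher in DZNep, beside 4.0% and 4.45% of all genes. SKP2, the ubiquitin ligase subunit that targets p27, was at 65.6 and 36.1 CPM in DZNep, a ratio of -0.86, and RBL1 had -0.65. CCND1 was at 88 and 85.9 CPM in DZNep and at 49.3 and 70.2 CPM in DMSO. CDKN2A was at 0.0464 and 0.0705 CPM in DZNep. Among BCL2 family and caspase genes 0 of 18 were 2-fold apart. This is near the shares over all genes, 0.9% higher and 0.2% lower. CYCS, which encodes cytochrome c, was at 78.2 and 40.3 CPM, a ratio of -0.96, and the survival gene MCL1 at 182 and 106 CPM, a ratio of -0.78. CASP9 had 0.64.

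Of 30 NRF2 targets, 1 was 1.5-fold higher and 3 were lower, beside 4.45% and 4.0% of all genes. ALDH3A1, an aldehyde dehydrogenase, was at 2017 and 3713 CPM in DZNep and at 1074 and 2707 CPM in DMSO, whereas the glutathione synthesis genes GCLC and GCLM had -0.69 and -0.65. Lysosome and autophagy genes had a median of 0.18, and ULK1, the kinase that starts autophagy, was at 70.5 and 123 CPM, a ratio of 0.81. NPM1, a nucleolar chaperone, was at 3197 and 2175 CPM in DZNep and at 5046 and 3563 CPM in DMSO. In the interferon list 1 of 14 genes was 1.5-fold higher, IFI35 at 0.78, which is near the share over all genes. After GC centring 0 of the list were past 1.5-fold.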
